A study of Homo sapiens with 8 samples.

Results

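The genes described here encode the receptors, docking proteins and enzyme subunits that pass growth factor and insulin signals to phosphoinositide 3-kinase (PI3-kinase): EGFR, ERBB2, ERBB3, ERBB4, INSR, IRS1, IRS2, PIK3CA, PIK3CB and PIK3R1. They were chosen by name, 10 genes in all, and 9 of them have a row in the RNA table of 18892 genes; ERBB4 was not analysed here. The table holds polyA RNA of C4-2, a human prostate cancer cell line that descends from LNCaP. It compares 2 libraries of cells carrying a control short hairpin RNA (shCTRL) with 2 libraries of cells carrying a hairpin against CDCA8 (shCDCA8), which encodes borealin of the chromosomal passenger complex. The sample titles number the libraries of a group 1 and 2 and do not say whether they came from separate cultures, so the spread between them may be technical. The titles give no sequence or number of hairpins against CDCA8, so loss of CDCA8 and other effects of the hairpin cannot be told apart. The other 4 libraries of the series are small RNA of shCTRL and shEZH2 cells and are not used here.

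Receptors of the ERBB family are tyrosine kinases that pair on binding growth factors of the EGF family. ERBB2 has no known ligand of its own and serves as a partner for the others, whereas ERBB3 has a weak kinase and binds neuregulins, and its phosphorylated tail recruits PI3-kinase. The insulin receptor INSR signals through the docking proteins IRS1 and IRS2, which recruit the same enzyme. Class IA PI3-kinase joins a catalytic subunit (PIK3CA encodes the alpha form, PIK3CB the beta form) to a regulatory subunit such as that of PIK3R1, and makes the membrane lipid that activates AKT.

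Values are RPM, read counts that the authors scaled by a total for each library. The total was between 46709612 and 55289855 reads, of which 17406425 to 21920570 reads fell in the gene rows. That share was 41.1% and 43.6% in the shCTRL libraries and 33.3% and 34.2% in the shCDCA8 libraries. The median gene moved by -0.27 on the log2(RPM + 1) scale. Each change below is given as deposited and after median-ratio scaling, which divides each library by its median ratio to the mean of the 4 libraries. The targeted gene CDCA8 stood at 14.2 and 16.5 RPM in shCTRL and at 3.98 and 3.94 RPM in shCDCA8. Of 11 markers of luminal prostate cells, all measured, 7 fell and 2 rose, where 47.6% and 18.8% of all tested genes did. Under median-ratio scaling 6 fell and 4 rose, where 33.6% and 33.2% did. KRT8 and KRT18 rose under both scalings, and FOLH1 and EPCAM only after median-ratio scaling. The summed level of the 11 markers was 4101 and 4290 RPM in shCTRL against 2093 and 2213 RPM in shCDCA8. KLK3 made up 1454 and 1477 RPM of it in shCTRL and 364 and 438 RPM in shCDCA8. Of the basal markers, ITGB4 fell from 4.11 and 4.58 to 0.804 and 1.01 RPM, KRT14 went from 2.53 and 2.53 to 2.03 and 2.35 RPM and was not called, KRT15 was at or below 0.0856 RPM, and KRT5 and TP63 were not analysed here. The summed RPM of the 6 fibroblast markers was 11.9 and 14.3 in shCTRL and 4.38 and 5.10 in shCDCA8. Most of it came from COL1A1, at 9.62 and 11.8 against 3.60 and 3.89 RPM. PDGFRB was at 2.08 and 2.29 against 0.746 and 1.01 RPM, and COL1A2, DCN, LUM and PDGFRA did not exceed 0.193 RPM. For the 4 endothelial and leukocyte markers with a row the sums were 5.33 and 6.59 against 1.42 and 1.90, nearly all of it from VWF. The part of these shifts in the results below was not tested. In bulk RNA, fewer cells of a type and less RNA per cell cannot be told apart.

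ERBB2 and PIK3CA rose after CDCA8 knockdown, and IRS1 and PIK3CB fell, under both scalings. EGFR, ERBB3, INSR and PIK3R1 fell in RPM as deposited but were not called after median-ratio scaling, and IRS2 was called under neither. With the replicate number as a block in the median-ratio fit, EGFR (adjusted p = 0.00791), ERBB3 (0.0419) and INSR (0.0396) were called and PIK3R1 was not (0.0936); nothing in the labels says that the numbers pair the libraries. A call is an adjusted p under 0.05 from limma on log2(RPM + 1), with Benjamini-Hochberg adjustment over the 11833 genes that reached 1 RPM in 2 or more of the 4 libraries. All 9 measured genes passed that filter, and 8 of them had at least 1 RPM in every library. As deposited 2 of 9 rose and 6 fell, where 18.8% of all tested genes rose and 47.6% fell (66.4% in all). After median-ratio scaling 2 rose and 2 fell, where 33.2% and 33.6% of all genes did (66.8% in all). The groups did not overlap for 8 of the 9 genes, against 83.2% of all tested genes, and for 7 of 9 against 84.2% after scaling. The counts alone do not set these genes apart from the table, so the size of each change is given. Their median log2 fold change was -0.48, beside -0.27 for all tested genes. After scaling it was -0.18.

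**Figure D1:**
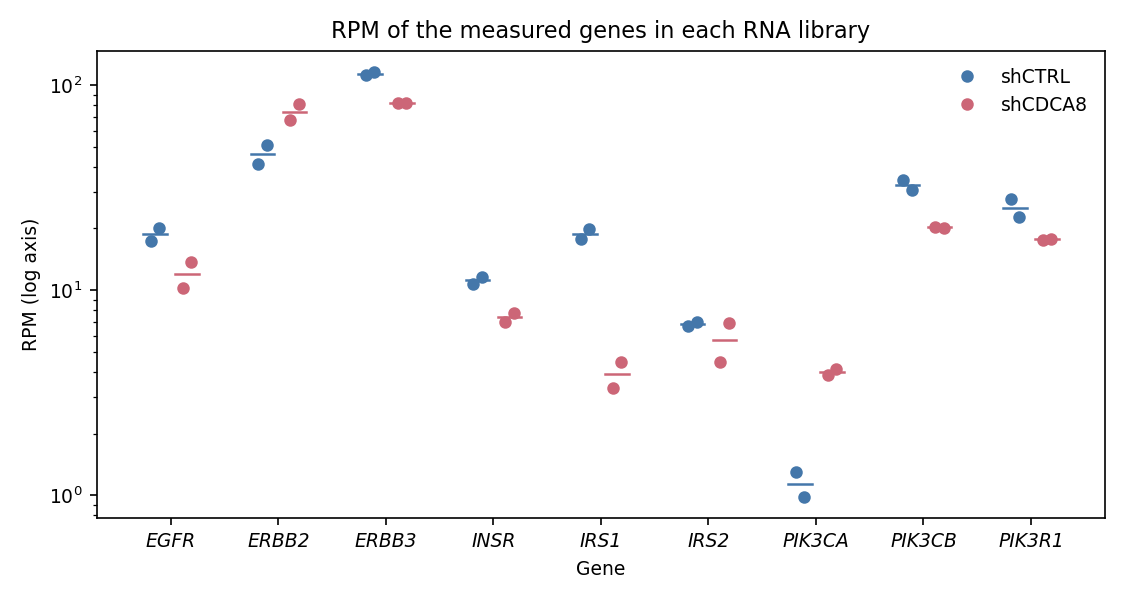
RPM of 9 genes (log axis) in the 2 shCTRL and 2 shCDCA8 libraries, each point a library and each bar the mean of its group. ERBB2 and PIK3CA are higher in both shCDCA8 libraries, IRS2 overlaps between the groups, and the other 6 genes are lower in both.

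**Figure D2:**
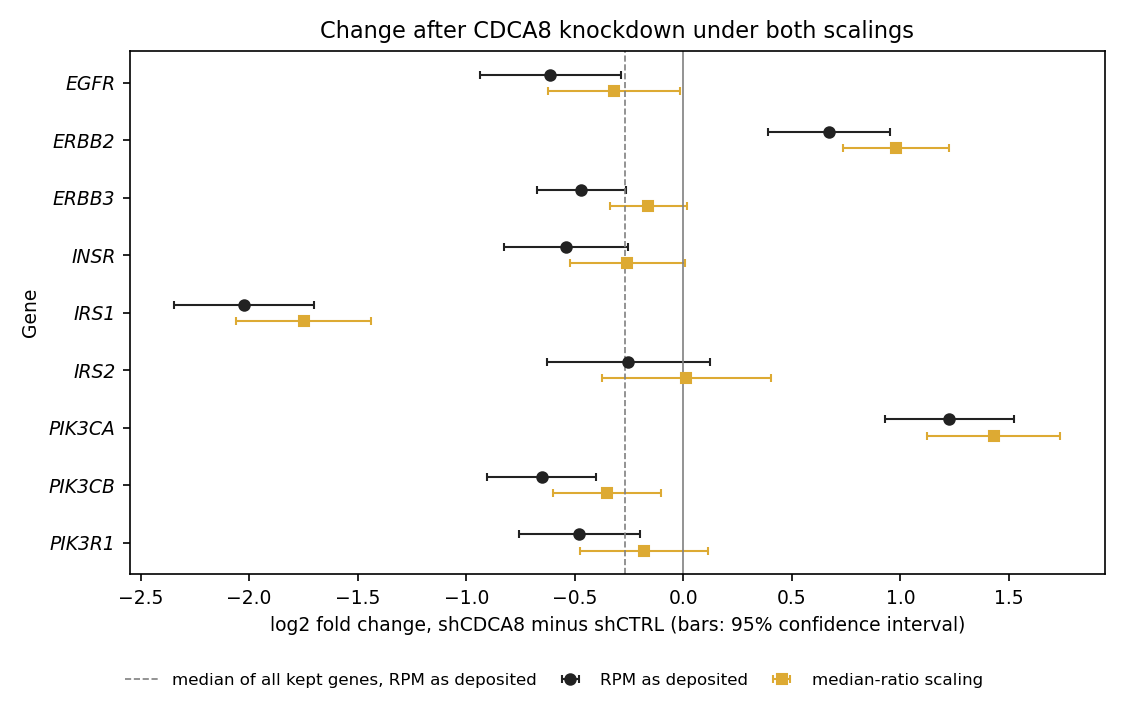
Log2 fold change of each gene, shCDCA8 minus shCTRL, with its 95% confidence interval from limma, for RPM as deposited and after median-ratio scaling; the dashed line is the median of all tested genes as deposited (-0.27). ERBB2, IRS1, PIK3CA and PIK3CB lie on the same side of 0 with their whole interval under both scalings.

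The start regions of the 4 genes called under both scalings are shown because they moved in opposite directions within the same pathway. Each sequence is the 250 bases before a RefSeq transcription start (GRCh38.p14), 5′ to 3′ along the gene. Capitals mark exact matches, on either strand, to GGGCGG (the GC box bound by SP1), to GTAAACA (the core bound by FOXO factors) and to TATAAA (the TATA box). ERBB2 lies at chr17:39687844-39688093 on the plus strand, IRS1 at chr2:226799821-226800070 on the minus strand, PIK3CA at chr3:179148107-179148356 on the plus strand and PIK3CB at chr3:138834929-138835178 on the minus strand.
ERBB2: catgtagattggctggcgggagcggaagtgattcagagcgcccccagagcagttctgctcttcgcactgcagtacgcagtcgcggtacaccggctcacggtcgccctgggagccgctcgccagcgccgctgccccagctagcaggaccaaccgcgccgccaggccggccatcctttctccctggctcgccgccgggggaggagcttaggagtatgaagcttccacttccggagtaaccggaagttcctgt
IRS1: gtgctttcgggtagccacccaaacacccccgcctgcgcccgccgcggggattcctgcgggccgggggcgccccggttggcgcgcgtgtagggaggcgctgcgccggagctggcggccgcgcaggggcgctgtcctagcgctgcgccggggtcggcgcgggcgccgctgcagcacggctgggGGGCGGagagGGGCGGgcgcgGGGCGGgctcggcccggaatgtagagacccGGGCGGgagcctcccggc
PIK3CA: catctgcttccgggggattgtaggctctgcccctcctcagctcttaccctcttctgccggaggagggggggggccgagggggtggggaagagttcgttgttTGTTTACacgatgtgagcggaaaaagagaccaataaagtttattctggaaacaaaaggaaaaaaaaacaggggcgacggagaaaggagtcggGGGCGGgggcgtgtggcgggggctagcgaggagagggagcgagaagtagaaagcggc
PIK3CB: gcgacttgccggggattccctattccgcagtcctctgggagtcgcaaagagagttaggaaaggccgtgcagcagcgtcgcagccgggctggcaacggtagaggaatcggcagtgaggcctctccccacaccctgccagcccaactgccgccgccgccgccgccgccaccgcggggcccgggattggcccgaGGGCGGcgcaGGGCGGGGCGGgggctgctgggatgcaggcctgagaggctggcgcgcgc

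The ERBB2 window shown held none of the 3 motifs, and starts of ERBB2 without a window were not examined. The IRS1 window held 4 GC boxes in its last 69 bases, with 39 CpG pairs and 80.8% G and C. The PIK3CA window held 1 FOXO match, 149 bases before the start and on the minus strand, and 1 GC box, 57 bases before the start. The PIK3CB window shown is that of the upstream start, and it held 3 GC boxes, the nearest starting 44 bases before the start, and the 2 nearest share a base. The window of its downstream start, at chr3:138707622-138707871, held none of the 3 motifs, with 37.2% G and C and 2 CpG pairs. Among 35116 RefSeq windows of the same length, 42.6% held a GC box, 2.98% a FOXO match and 10.7% a TATA box, and the median window had 58.0% G and C and 11 CpG pairs. Windows were found for 8 of the measured genes, 13 in all, with several for EGFR, PIK3CB and PIK3R1. None was found for ERBB3. Of these 13 windows 8 held a GC box, 1 (that of PIK3CA) a FOXO match and 1 (the downstream start of EGFR) a TATA box. A match is a description of the letters and not a measured site.

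Among the receptors, ERBB2 stood at 41.3 and 51.1 RPM in shCTRL and at 67.3 and 81.0 RPM in shCDCA8. Both knockdown libraries were above both controls. Its log2 fold change was 0.67 ± 0.129 (SE, n = 2 against 2; limma adjusted p = 0.000645), and 0.98 after median-ratio scaling (adjusted p = 0.000108). It lay above 92.2% of tested genes in log2 fold change. In both groups replicate 2 was above replicate 1, by 0.30 in shCTRL and 0.26 in shCDCA8 on the log2(RPM + 1) scale, where the median gene differed by 0.13 in each.

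EGFR, the receptor of EGF itself, stood at 17.3 and 20.1 RPM in shCTRL and at 10.3 and 13.7 RPM in shCDCA8. It was lower in both knockdown libraries, and the groups did not overlap. As deposited it fell by 0.61 ± 0.149 (limma adjusted p = 0.00318), and after median-ratio scaling its log2 fold change was -0.32 (adjusted p = 0.0603). EGFR-AS1, an antisense transcript within the EGFR locus, did not exceed 0.113 RPM in any library.

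ERBB3, the neuregulin receptor, stood at 112 and 116 RPM in shCTRL and at 82.2 and 81.6 RPM in shCDCA8, with little spread in either group. It fell by 0.47 ± 0.0940 as deposited (limma adjusted p = 0.000873). Its log2 fold change after median-ratio scaling was -0.16, with an interval of -0.34 to 0.02 (adjusted p = 0.0958).

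The balance between receptors does not depend on the scaling, because both values of a ratio come from the same library. The number itself also reflects transcript lengths, so only its change is read. The ratio of ERBB3 to ERBB2 RPM was 2.71 and 2.27 in shCTRL and 1.22 and 1.01 in shCDCA8, a change of -1.16 on the log2 scale. The ratio of EGFR to ERBB2 was 0.420 and 0.394 against 0.153 and 0.169, a change of -1.34. Neither ratio overlapped between the groups. The exact permutation test (two-sided) gave p = 0.333 for each of the 6 ratios compared here, also after adjustment over them, and that is the smallest p that 2 against 2 libraries allow.

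On the insulin side, IRS1 had the largest fall of the 9 genes. It stood at 17.7 and 19.8 RPM in shCTRL and at 3.33 and 4.45 RPM in shCDCA8. The mean in shCTRL was 4.82 times that in shCDCA8, and the groups were far apart. It fell by 2.02 ± 0.148 (SE, n = 2 against 2; limma adjusted p = 4.57e-07), and by 1.75 after median-ratio scaling (adjusted p = 2.14e-05). Only 162 of 11833 tested genes had a lower log2 fold change.

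IRS2, the second docking protein, stood at 6.70 and 6.98 RPM in shCTRL and at 4.44 and 6.95 RPM in shCDCA8. On the log2(RPM + 1) scale the shCDCA8 libraries differed by 0.55, more than any other pair of replicates among the 9 genes, and replicate 2 lay within the range of the controls. The log2 fold change was -0.25 with an interval of -0.63 to 0.12 (limma adjusted p = 0.214), and 0.01 with an interval of -0.38 to 0.41 after median-ratio scaling, so its direction depended on the scaling. Without shCDCA8 replicate 2 it was called (-0.53, limma adjusted p = 0.0173), and without shCDCA8 replicate 1 it stood at 0.02 (adjusted p = 0.940). The ratio of IRS2 to IRS1 was 0.379 and 0.352 in shCTRL and 1.33 and 1.56 in shCDCA8, a change of 1.98 on the log2 scale. The ratio did not overlap between the groups.

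INSR, the insulin receptor, stood at 10.7 and 11.6 RPM in shCTRL and at 7.01 and 7.74 RPM in shCDCA8. As deposited it fell by 0.54 ± 0.131 (limma adjusted p = 0.00323), and after median-ratio scaling it stood at -0.26 (adjusted p = 0.0798). Its relative IGF1R, the receptor of insulin-like growth factors, moved further. IGF1R was at 8.93 and 9.48 RPM in shCTRL and at 2.55 and 3.18 RPM in shCDCA8, and fell by 1.15 after median-ratio scaling (adjusted p = 0.000133). The ratio of INSR to IGF1R was 1.204 and 1.219 in shCTRL and 2.75 and 2.43 in shCDCA8, a change of 1.09 on the log2 scale.

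Among the PI3-kinase subunits, PIK3CA stood at 1.29 and 0.985 RPM in shCTRL and at 3.85 and 4.14 RPM in shCDCA8. These values rest on 69 and 46 reads in shCTRL and on 201 and 229 reads in shCDCA8. The mean was 3.51 times higher after knockdown, with no overlap. On the log2(RPM + 1) scale it rose by 1.23 ± 0.136 (SE, n = 2 against 2; limma adjusted p = 1.09e-05), and by 1.43 after median-ratio scaling (adjusted p = 4.93e-05). The added 1 RPM understates a change at this level: edgeR on the recovered reads gave 2.10 (adjusted p = 0.000162), and a pseudocount of 5 RPM gave 0.55. Only 164 tested genes had a higher log2 fold change. With 0.985 RPM in a control library, PIK3CA met the filter through the other 3 libraries. Part of PIK3CA is copied in a pseudogene, and no source used here says how shared reads were counted.

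PIK3CB, the beta form, stood at 34.3 and 30.7 RPM in shCTRL and at 20.4 and 20.2 RPM in shCDCA8. Both knockdown libraries were lower and close to each other. It fell by 0.65 ± 0.115 (limma adjusted p = 0.000344), and by 0.35 after median-ratio scaling (adjusted p = 0.0193). It was called in all 16 alternatives, with an adjusted p of at most 0.0257.

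PIK3R1, the alpha regulatory subunit, stood at 27.8 and 22.7 RPM in shCTRL and at 17.7 and 17.9 RPM in shCDCA8. As deposited it fell by 0.48 ± 0.127 (limma adjusted p = 0.00555). After median-ratio scaling the groups overlapped and the log2 fold change was -0.18 (adjusted p = 0.243). Without shCTRL replicate 1 the call was lost as well (-0.34, adjusted p = 0.0628).

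The 2 ratios of the alpha catalytic subunit changed most of the 6. The ratio of PIK3CA to PIK3CB was 0.0377 and 0.0320 in shCTRL and 0.188 and 0.205 in shCDCA8, which is 5.66 times higher. The ratio of PIK3CA to PIK3R1 was 0.0466 and 0.0434 against 0.218 and 0.232, which is 5.00 times higher. Neither overlapped between the groups.

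**Figure D3:**
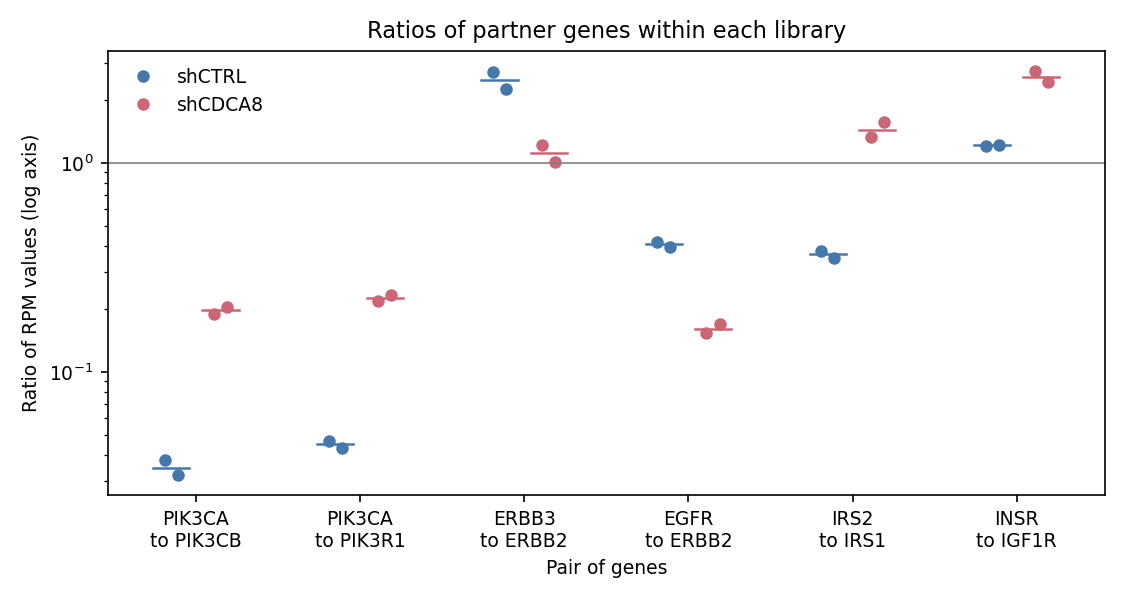
Ratio of the RPM values of 6 pairs of genes within each library (log axis), with shCTRL and shCDCA8 libraries as points and the geometric mean of each group as a bar. No pair overlaps between the groups; PIK3CA to PIK3CB goes from 0.0377 and 0.0320 to 0.188 and 0.205.

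The other class IA subunits and the class II and III enzymes were read from a list of 11 further PI3-kinase genes, of which 7 were tested. As deposited 3 rose and none fell, and after median-ratio scaling all 7 rose, where 18.8% and 33.2% of all genes rose. PIK3C2A, a class II enzyme of membrane traffic, went from 4.54 and 2.14 to 14.5 and 15.8 RPM and rose by 1.95 (limma adjusted p = 9.56e-06). PIK3C3, the class III enzyme of autophagy and endosomes, went from 3.94 and 3.68 to 9.01 and 8.36 RPM and rose by 1.01. PIK3R3, a regulatory subunit of class IA, rose by 0.29 as deposited (adjusted p = 0.024) and by 0.60 after median-ratio scaling, and lost its call as deposited without shCTRL replicate 1 (0.28, adjusted p = 0.0874), without shCTRL replicate 2 (0.30, adjusted p = 0.0726) or without shCDCA8 replicate 1 (0.23, adjusted p = 0.181). PIK3CD, the delta catalytic subunit, had a log2 fold change of 0.35 as deposited (adjusted p = 0.0629) and rose by 0.65 after median-ratio scaling (adjusted p = 0.00325).

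Of 24 other receptor tyrosine kinases 11 were tested, and 5 of those had at least 1 RPM in all 4 libraries. Of these 5, 4 fell and none rose, where 47.6% and 18.8% of all tested genes did. A fit limited to the 10666 genes with at least 1 RPM in all 4 libraries called 4776 lower and 2054 higher. Those counts also stand beside the later ones at that level. The other 6 of the 11 receptors were under 1 RPM in at least 1 knockdown library. They passed the filter through the controls and are left out of the count of 5. EPHB4, an ephrin receptor, went from 84.8 and 90.6 to 17.95 and 23.1 RPM (log2 fold change -2.05, limma adjusted p = 1.38e-07). TYRO3 went from 22.6 and 25.5 to 6.68 and 9.12 RPM and also fell (adjusted p = 4.68e-06). FGFR4, a receptor of fibroblast growth factors, went from 5.37 and 5.07 to 1.03 and 1.12 RPM and fell by 1.58. FGFR2 was below 1 RPM in both knockdown libraries (3.06 and 3.10 against 0.766 and 0.687 RPM). After median-ratio scaling the same 4 of the 5 receptors were called lower, where 33.6% of all tested genes were. The remaining receptor, DDR1, was not called under either scaling.

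Few genes for ERBB ligands passed the filter. Of 11 in the list 3 were tested and 6 others stayed below it, while EREG and NRG1 were not analysed here. As deposited 2 of the 3 fell (EGF, which passed through the controls, and TGFA), and 1 after median-ratio scaling. Over all tested genes 47.6% fell as deposited and 33.6% after median-ratio scaling. TGFA, a ligand of EGFR, went from 2.35 and 2.42 to 1.53 and 1.34 RPM and fell by 0.48 as deposited (limma adjusted p = 0.00636), but by 0.27 after median-ratio scaling (adjusted p = 0.0844, not called), and without shCDCA8 replicate 2 its call was lost (-0.42, adjusted p = 0.0548). The neuregulin genes NRG2, NRG3 and NRG4 stayed at or below 0.343 RPM.

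Of 14 tested adaptors and brakes of ERBB signalling, 6 fell and 1 rose as deposited, where 47.6% of all tested genes fell and 18.8% rose. After median-ratio scaling 6 fell and 3 rose, where 33.6% and 33.2% of all tested genes did. After row-sum scaling 6 fell and 5 rose, where 3873 and 3985 of all 11833 tested genes did. CBLB (-0.33), SPRED1 (-0.33) and SPRY2 (0.05), which also restrain signalling, were not called. RNF41, a ubiquitin ligase that degrades ERBB3, went from 116 and 117 to 46.5 and 46.3 RPM and fell by 1.31 (limma adjusted p = 4.75e-07). CBL, the ubiquitin ligase of activated EGFR, fell from 15.4 and 18.8 to 6.30 and 5.68 RPM. LRIG1, a membrane protein that restrains ERBB receptors, fell from 142 and 163 to 58.2 and 82.7 RPM, and SPRED2, an inhibitor of RAS signalling, fell by 0.83. These 4 were named because they had the smallest p of the list in these data. Each stayed called in all 16 alternatives, which reuse the same libraries.

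Of 9 tested genes of the insulin and IGF axis other than INSR, IRS1 and IRS2, 7 fell and 1 rose. Over all tested genes 47.6% fell and 18.8% rose. After median-ratio scaling 5 fell and 1 rose, where 33.6% and 33.2% of all tested genes did. As deposited, among the 7 with at least 1 RPM in every library, 5 fell and 1 rose. GRB10, an adaptor that inhibits the insulin receptor, went from 151 and 152 to 51.1 and 52.9 RPM and fell by 1.53 (limma adjusted p = 1.42e-07). The IGF binding proteins IGFBP2 and IGFBP3 fell by 0.79 and 1.02.

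Downstream of the lipid signal, of 17 AKT and TOR kinases and partners 3 rose and 5 fell, where 18.8% and 47.6% of all genes did, and after median-ratio scaling 9 rose and 3 fell, where 33.2% and 33.6% did. Among the 15 with at least 1 RPM in every library, 2 rose and 4 fell. RPS6KB2, a ribosomal S6 kinase, went from 33.7 and 37.1 to 110 and 116 RPM and rose by 1.65 (limma adjusted p = 1.48e-07). RICTOR, the scaffold of TOR complex 2, went from 0.825 and 0.321 to 3.27 and 2.79 RPM, so it passed the filter through the knockdown libraries. MLST8, a subunit of both TOR complexes, fell by 1.11, and SGK3, a kinase related to AKT, went from 1.76 and 2.12 to 0.555 and 0.434 RPM, passing the filter through the controls. Of 9 phosphatases and inhibitors 2 fell and none rose (1 fell and 2 rose after median-ratio scaling): INPP5E, a lipid phosphatase, fell by 0.81, and INPP4A fell by 0.42 as deposited but stood at -0.13 after median-ratio scaling (adjusted p = 0.363). Without shCTRL replicate 2 (-0.34, adjusted p = 0.0833) or shCDCA8 replicate 1 (-0.30, adjusted p = 0.170) INPP4A was not called either.

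FOXO factors are shut out of the nucleus by AKT, and their target genes are often read beside PI3-kinase signalling. Of 18 tested FOXO genes and published targets 5 rose and 10 fell (5 and 6 after median-ratio scaling), and 5 rose and 9 fell among the 17 with at least 1 RPM in every library. Over all tested genes 18.8% rose and 47.6% fell, and 33.2% and 33.6% after median-ratio scaling. CDKN1B, a cell cycle inhibitor, went from 34.1 and 33.7 to 69.9 and 66.7 RPM and rose by 0.99 (limma adjusted p = 6.13e-06). TXNIP, a regulator of glucose uptake, fell by 1.37, FOXO6 by 1.24 and RBL2 by 1.06. The 5 genes of this list that rose, under both scalings, were CDKN1B, PINK1, KLF6, CCNG2 and CITED2. INSR, IRS2 and ERBB3 are themselves described as FOXO targets, and none of the 3 rose under either scaling. The activity of FOXO factors was not tested. Of 13 output genes of ERK signalling 7 stayed under the filter and were not tested. The mean of each was higher in shCDCA8. No share over all genes under the filter was computed, so no direction is read from these means. Groups did not overlap for 83.2% of all tested genes, and among these 7 only for DUSP5 (0.525 and 0.771 against 0.938 and 1.23 RPM). The others overlapped, with as few as 1 and 0 reads against 3 and 0 for EPHA4. Of the 6 tested, 5 fell and none rose (3 fell and 1 rose after median-ratio scaling), and 4 of the 5 with at least 1 RPM in every library fell. DUSP4, a phosphatase of ERK, went from 113 and 126 to 64.8 and 81.5 RPM and fell by 0.71, LIF fell by 1.22, and EPHA2 fell by 0.53 as deposited but was not called after median-ratio scaling (-0.29, adjusted p = 0.0751). SPHK1 went from 3.10 and 3.34 to 0.842 and 0.959 RPM, passing the filter through the controls.

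**Figure D4:**
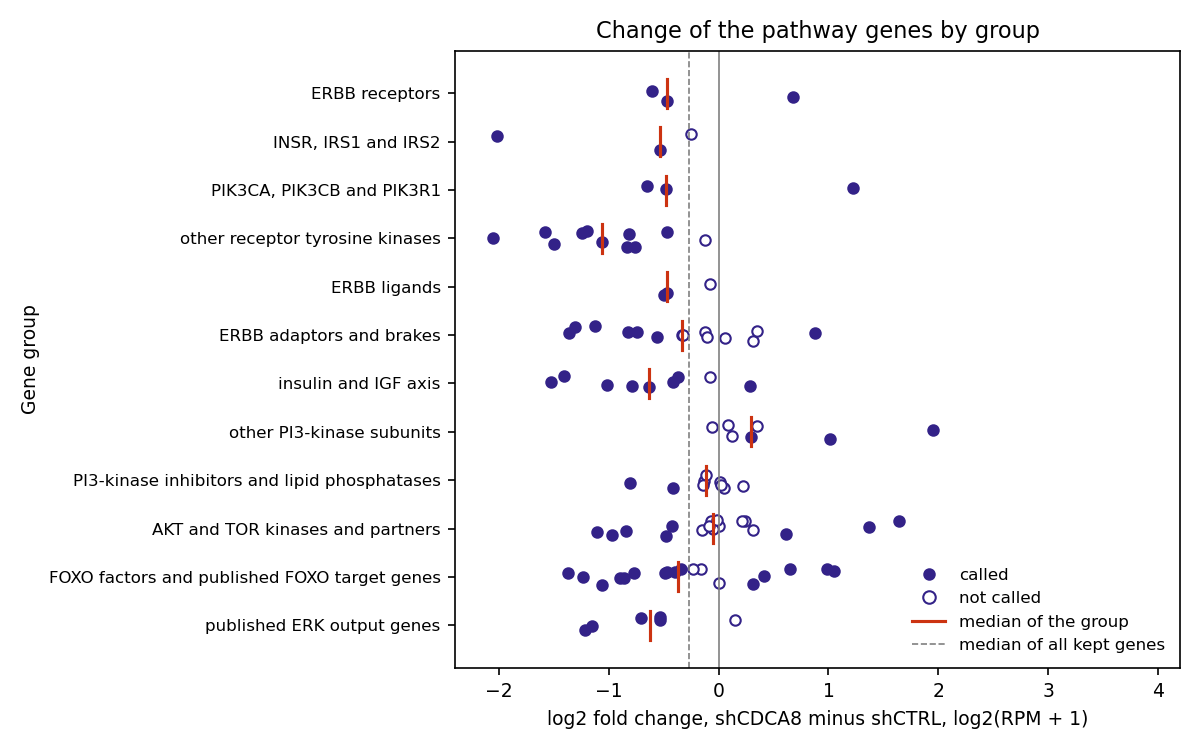
Log2 fold change (shCDCA8 minus shCTRL, on log2(RPM + 1) as deposited) of every tested gene in 12 groups, filled where called and open where not, with the median of each group in red and that of all tested genes dashed (-0.27). ERBB2 at 0.67 and PIK3CA at 1.23 lie to the right of 0 in groups whose other genes lie to the left.

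The positions of the genes were examined through the 2 nearest tested genes on each side in RefSeq gene order (GRCh38.p14), a choice made after the values of the 9 genes were known. Of 36 such neighbours 11 rose and 14 fell, where 18.8% and 47.6% of all genes did. After median-ratio scaling 17 rose and 8 fell, where 33.2% and 33.6% did. Beside ERBB2, STARD3 (0.33, limma adjusted p = 0.017) and MIEN1 (0.26, adjusted p = 0.0383) rose, while PGAP3 (0.15) and GRB7 (-0.05) were not called. MIEN1 overlaps ERBB2 in the annotation, and went from 65.6 and 70.7 to 83.0 and 80.0 RPM; without a stated strand setting reads of overlapping genes cannot be told apart. Beside PIK3CA, ZMAT3 (1.60) and MFN1 (1.26) rose and TBL1XR1 (0.20) and ZNF639 (-0.24) were not called. KCNMB3, which overlaps PIK3CA, was between 0.364 and 0.835 RPM and was lower in both knockdown libraries. Beside IRS1, SERPINE2 (-1.06) and RHBDD1 (-0.93) fell, CUL3 rose (0.93) and MFF was not called (0.08). Beside PIK3CB, 3 neighbours rose (CEP70, MRPS22 and COPB2) and FAIM fell as deposited (-0.33), but FAIM was not called after median-ratio scaling (-0.05). Under that scaling PGAP3, TBL1XR1 and MFF were also called, each higher in shCDCA8.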

How the data were processed

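PolyA RNA of C4-2 cells was measured in 2 shCTRL and 2 shCDCA8 libraries. The authors deposited RPM, per the file name, in a table of 18892 genes. Per the submitters' processing notes TopHat, HTSeq, edgeR and cutadapt and the build hg19 were used, without versions. No source used here gives the annotation, the strand setting or the choice of the divisor. All values above 0 were whole multiples of 1 step per library (100% within 0.01 of a whole read), so reads could be recovered. Every row had a gene name, and the replicates of a group differed by more than sampling noise (chi-square per degree of freedom 8.08 and 10.0 over genes).

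Values were tested as log2(RPM + 1) with limma 3.58.1 in R 4.3.3 (two-sided, with a trend), so log2 fold changes refer to that scale and are too small for low genes. The 4 libraries were fitted together, without covariates. Alternatives were 3 other scalings, 2 pseudocounts, 2 filters, no trend, a replicate block, each library left out, and edgeR 4.0.16 and DESeq2 1.42.0 on recovered reads, where edgeR called 7807 genes. A replicate block with median-ratio scaling was added after seeing the data. The fit was also run on simulated counts in which few genes changed, unlike in these data, so that run does not bear on the choice of scaling. Named genes are the 10 listed, IGF1R, CDCA8, and up to 4 called genes per pathway list with the smallest p and a mean of at least 1 RPM; markers, ligands under the filter, ratios' partners, neighbours and other genes outside this rule were chosen after their values were seen. The genes and lists were chosen with earlier results of these data known. Transcript lengths were not used, so levels are not compared between genes. With recovered reads, 3 reads correspond to between 0.0543 and 0.0642 RPM.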

Additional observations from a re-analysis of the deposited data

How the results depend on the processing

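Of the 9 genes, ERBB2, IRS1 and PIK3CB kept their direction and call in all 16 alternatives, and PIK3CA in all 15 that gave a value, since it has under 1 RPM in a control library and drops out when every library must reach that level. EGFR and ERBB3 were called in 12 of 16, INSR in 11 and PIK3R1 in 9, with the same sign throughout. The number of the 9 genes called, 8 as deposited, was 4 under median-ratio scaling, 4 under scaling to the sum of the gene rows, 4 with edgeR and 4 with DESeq2, 6 under quantile normalization (where EGFR, adjusted p = 0.0376, and ERBB3, 0.0163, stayed called), and between 7 and 9 when a library was left out. Their median log2 fold change, -0.48 as deposited, was -0.18 under median-ratio scaling with or without a replicate block -0.17 under row-sum scaling and -0.24 under quantile normalization, and between -0.53 and -0.47 when a library was left out. These scalings remove the shift of the whole table. IRS2 turned from -0.25 to 0.0143 under median-ratio scaling (0.0143 with the replicate block as well), 0.0268 under row-sum scaling, 0.0220 under quantile normalization, 0.0405 with edgeR and 0.0428 with DESeq2. It ranged from -0.53 to 0.0198 (without shCDCA8 replicate 1) when a library was left out. Leaving out a library in this way leaves a group with 1 library, which is assumed to vary like the others. Over all genes, 6717 to 7683 were called without 1 library, against 7852. Scaling moved the split of calls from 2224 higher and 5628 lower to 3931 and 3979.

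The replicate numbers are shared by both groups, but nothing in the labels says that they pair the libraries. The difference between replicates 2 and 1 had a correlation of 0.31 between the groups over tested genes. With a replicate block 8901 genes were called, 2 of the 9 genes rose and 6 fell (median log2 fold change -0.48). The block together with median-ratio scaling called 8819 genes and 7 of the 9, with EGFR (adjusted p = 0.00791), ERBB3 (0.0419) and INSR (0.0396) called as well. With 2 libraries per group the ratios cannot reach a p below 0.333, and under median-ratio scaling without a block EGFR, ERBB3, INSR, IRS2 and PIK3R1 did not pass the threshold, which does not show that they moved only with the table.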
